A study of Mus musculus with 21 samples.

Results

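The polypyrimidine tract binding (PTB) genes Ptbp1, Ptbp2 and Ptbp3 were followed through germinal centre B cells with intact or conditionally deleted Ptbp1, and on the RNA map of the PTBP1 protein itself. They were chosen as the 3 members of the gene family, by symbol, among 47729 genes listed in each count file. Of 244659 PTBP1 crosslink sites in the pooled site list, 348 lay inside their spans on the strand of the gene. That list comes from splenic B cells of female C57BL/6 mice cultured for 48 h with lipopolysaccharide, not from germinal centre cells. Germinal centre B cells were sorted from the spleens of C57BL/6 mice 7 days after immunisation with NP-KLH in alum, after magnetic removal of IgD, CD3e, Gr1 and Ter119 positive cells. Cells came from the light zone (LZ), where B cells are selected, and the dark zone (DZ), where they divide and mutate their antibody genes. Control mice were CD79a+/+Ptbp1fl/fl and conditional knockout (cKO) mice were CD79acre/+Ptbp1fl/fl. Both genotypes therefore carried floxed Ptbp1 alleles, and only cKO mice carried Cre, placed in 1 copy of Cd79a and active in the B lineage. No group had Cre without floxed Ptbp1, so effects of Cre, of the altered Cd79a allele and of Ptbp1 deletion cannot be told apart. Each library was a pool of 3 to 5 mice of one sex, and each zone and genotype held 4 libraries, 16 in all. Sort days 1 and 2 were males and sort days 3 and 4 females, and one pool gave both the LZ and the DZ library of a day and genotype. Ages were not given in the sources used here.

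PTB proteins bind pyrimidine-rich stretches of RNA and regulate splicing. In many cells PTBP1 keeps PTBP2 low: it makes the spliceosome skip an internal exon of the Ptbp2 transcript, which leaves an mRNA that nonsense-mediated decay destroys, and it limits its own transcript in a similar way. PTBP2 is best known from neurons, where it takes the place of PTBP1 during differentiation, and PTBP3 was first described in blood cells.

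Ptbp1 (ENSMUSG00000006498) spans chr10:79854432-79864435 on the plus strand of mm10, Ptbp2 (ENSMUSG00000028134) chr3:119718741-119784647 on the minus strand and Ptbp3 (ENSMUSG00000028382) chr4:59471868-59549378, also on the minus strand. The 250 bases before the listed starts of Ptbp1 and Ptbp2, the members that moved in opposite directions, are shown with CG dinucleotides in capitals. They are RefSeq sequences of GRCm38.p6 at chr10:79854182-79854431 and chr3:119783389-119783638, read 5′ to 3′ on the gene strand. The listed Ptbp2 start lies inside the span given above.
Ptbp1: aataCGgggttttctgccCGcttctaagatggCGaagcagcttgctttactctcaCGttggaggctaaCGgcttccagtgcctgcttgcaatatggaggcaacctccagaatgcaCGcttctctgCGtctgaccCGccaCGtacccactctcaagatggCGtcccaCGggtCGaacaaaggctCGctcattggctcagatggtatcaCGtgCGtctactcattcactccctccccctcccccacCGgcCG
Ptbp2: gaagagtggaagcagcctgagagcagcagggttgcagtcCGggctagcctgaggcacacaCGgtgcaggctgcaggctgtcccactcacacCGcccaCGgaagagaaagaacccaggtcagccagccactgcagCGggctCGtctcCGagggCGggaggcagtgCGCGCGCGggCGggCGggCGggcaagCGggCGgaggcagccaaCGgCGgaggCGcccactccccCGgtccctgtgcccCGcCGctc
The Ptbp1 window held 17 CG dinucleotides at 57.6% G and C, and the Ptbp2 window 23 at 72.4%. Across 32851 such windows the median was 6, and 76.5% and 86.7% of them held fewer than Ptbp1 and Ptbp2. Neither window held an iCLIP site. No window for Ptbp3 was in the table used.

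Gene counts summed to 26823882 to 34240096 per library, and replicate libraries differed beyond sampling noise (chi-square per degree of freedom 22.2 to 167). The summed level of 4 light zone markers was 1912 to 2204 CPM in LZ control against 544 to 617 CPM in DZ control libraries, and that of 7 germinal centre B cell markers was 4798 to 6413 CPM over all libraries. CPM is a count scaled to sequencing depth with the TMM method of edgeR, and since it is not scaled to gene length, levels are compared between libraries and not between genes. Markers of other cell types were also detected, some at high levels. Plasma cell markers summed to 1198 to 1960 CPM in LZ control and 1118 to 2094 CPM in LZ cKO libraries. In DZ control and DZ cKO libraries they summed to 2582 to 7539 and 2262 to 10617 CPM. Naive and memory B cell markers summed to 1611 to 2153 CPM in LZ control and 1527 to 2312 CPM in LZ cKO libraries. T cell, NK cell, neutrophil and erythroid markers each summed to at most 156 CPM in any library. Macrophage markers summed to 22.9 to 367 CPM in LZ control and 76.2 to 458 CPM in LZ cKO libraries. In DZ control and DZ cKO libraries these sums were 13.9 to 382 and 39.6 to 1155 CPM. On every sort day the macrophage sum was higher in the cKO than in the control library of the same zone. The same held for NK cell markers. All 6 of 6 macrophage markers averaged at least 1 CPM in each group. The 4 dendritic cell markers (all detected) summed to 53.9 to 76.8 CPM in LZ control, 119 to 153 in LZ cKO, 61.8 to 73.1 in DZ control and 77.7 to 111 CPM in DZ cKO libraries. Most of that sum was Flt3, at 48.5 to 67.0 and 111 to 145 CPM in LZ control and cKO and at 56.2 to 60.1 and 74.9 to 94.8 CPM in the DZ. Itgax, Siglech and Zbtb46 overlapped between genotypes in both zones. The part of these cell types in the results was not tested.

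Ptbp1, the targeted gene, fell in every cKO library. On sort days 1 to 4 its level was 367, 353, 420 and 388 CPM in LZ control and 94.4, 96.2, 121 and 82.5 CPM in LZ cKO libraries. DZ control libraries read 416, 424, 448 and 486 CPM, and DZ cKO libraries 114, 100.1, 107 and 92.1 CPM. Control and cKO libraries did not overlap in either zone, and the lowest control library was above all 8 cKO libraries. Compared with the control library of the same day, cKO libraries held 21.3% to 28.9% in the LZ and 19.0% to 27.4% in the DZ. Raw counts behind these levels were 2605 to 3677 in LZ cKO and 2627 to 3734 in DZ cKO libraries. The fall was 1.95 on the log2 scale in the LZ (edgeR log2 fold change -1.95 ± 0.11 SE, 95% interval -2.19 to -1.72, adjusted p = 1.83e-07). In the DZ the log2 fold change was -2.10 ± 0.11 (95% interval -2.34 to -1.86, edgeR adjusted p = 6.67e-08). Reads were counted over the whole gene and the sources used here do not give the deleted exons, so truncated and intact transcripts cannot be told apart. In pooled RNA, fewer cells of a type and less RNA per cell cannot be told apart either.

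Ptbp2 rose in every cKO library, from a low level. In LZ control libraries it was 16.7, 13.7, 8.60 and 13.6 CPM on days 1 to 4, and in LZ cKO libraries 126, 143, 186 and 182 CPM. The DZ control libraries held 14.7, 19.3, 14.1 and 15.96 CPM and the DZ cKO libraries 195, 182, 290.4 and 195 CPM. The highest control library was below the lowest cKO library by a wide margin, and the controls still had 256 to 627 counts each. Within a sort day the LZ ratio of cKO to control was 7.50, 10.4, 21.7 and 13.4, and the DZ ratio 13.2, 9.43, 20.6 and 12.2. The largest ratio fell on day 3 in both zones, the day with the lowest control and the highest cKO level in both. The log2 fold change was 3.60 ± 0.22 in the LZ (95% interval 3.14 to 4.05, edgeR adjusted p = 2.05e-07) and 3.75 ± 0.22 in the DZ (95% interval 3.29 to 4.21, edgeR adjusted p = 1.16e-07). As a fold, these were 12.1 and 13.5.

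**Figure D1:**
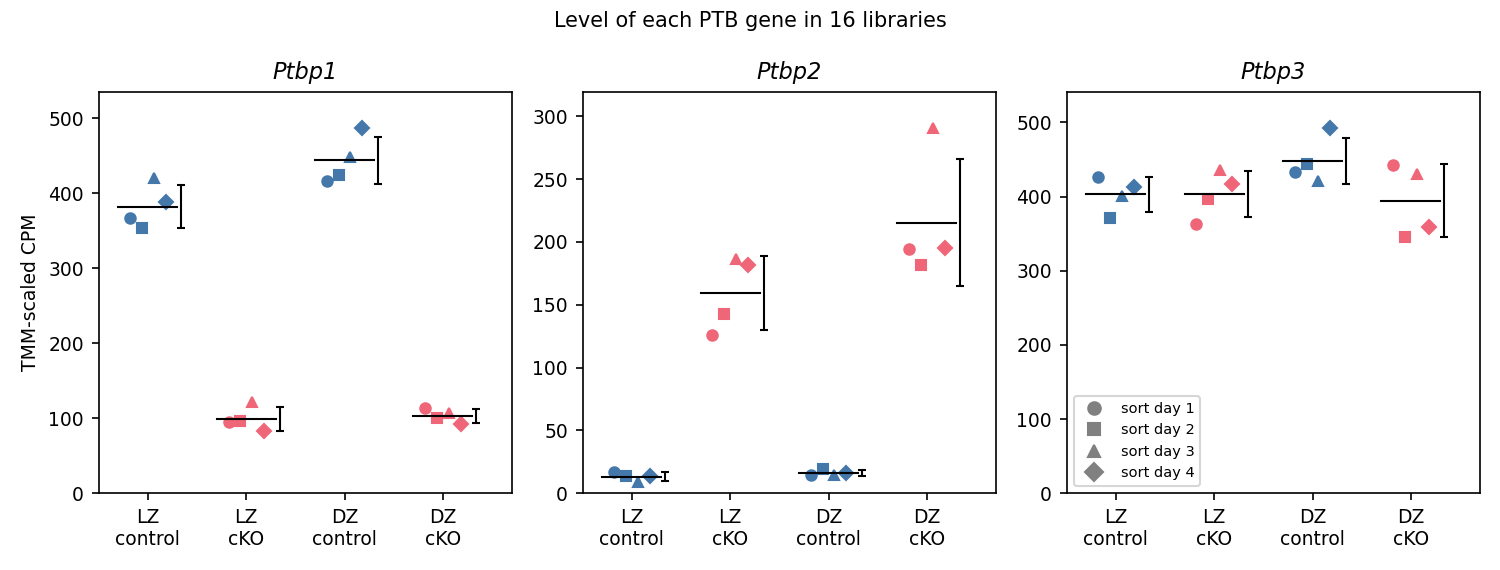
Level in TMM-scaled CPM (vertical axis, from 0) of Ptbp1, Ptbp2 and Ptbp3 in the 4 groups (horizontal axis); points are libraries with symbols by sort day, horizontal lines are means and bars are SD (n = 4). Ptbp1 is 353 to 486 CPM in control and 82.5 to 121 CPM in cKO libraries, Ptbp2 runs the opposite way, and Ptbp3 libraries of both genotypes overlap.

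Ptbp3 passed the test in neither zone. Its level on days 1 to 4 was 426, 372, 401 and 413 CPM in LZ control and 363, 397, 435 and 417 CPM in LZ cKO libraries. DZ control libraries held 433, 444, 421 and 492 CPM, against 442, 345, 430 and 360 CPM in DZ cKO. The genotypes overlapped in both zones. In the LZ the means were 403 ± 23.3 and 403 ± 31.2 CPM (SD, n = 4), with a log2 fold change of 0.00012 ± 0.091 (95% interval -0.19 to 0.19, edgeR adjusted p = 1.0), and the sign changed under upper-quartile scaling (-0.0098). The DZ means were 447 ± 31.1 in control and 394 ± 49.1 CPM in cKO (log2 fold change -0.18 ± 0.091, 95% interval -0.38 to 0.012, edgeR adjusted p = 0.486). Both DZ cKO libraries below every control were those of days 2 and 4, at 77.7% and 73.1% of their same-day control, while those of days 1 and 3 were at 102.3% and 102.1%. In either zone the Ptbp1 and Ptbp2 changes lay outside the Ptbp3 interval, which leaves room for smaller changes.

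Of the 3 genes, 2 were called in each zone: Ptbp2, and Ptbp1, which is itself the gene targeted for deletion. Among 15789 tested genes, edgeR called 1.08% in the LZ (0.69% higher, 0.393% lower) and 0.627% in the DZ (0.31% higher, 0.317% lower) at an adjusted p under 0.05. Ptbp1 and Ptbp2 ranked 1 and 2 by p in both zones. With sort day as a block the number called over all genes rose from 171 to 868 in the LZ and from 99 to 517 in the DZ, and the calls on the 3 PTB genes stayed as they were.

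**Figure D2:**
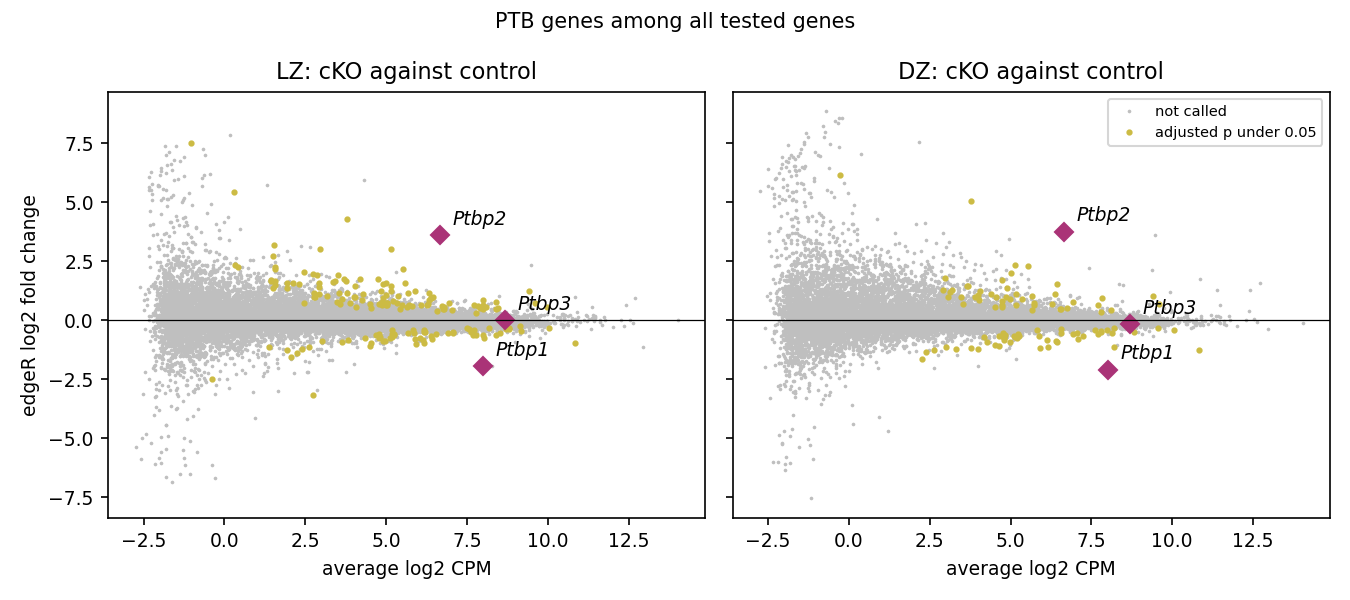
edgeR log2 fold change of cKO against control (vertical axis) against average log2 CPM (horizontal axis) for each of 15789 tested genes, LZ on the left and DZ on the right; yellow points passed an adjusted p under 0.05 and diamonds are the PTB genes. Ptbp2 lies at 3.60 and 3.75, Ptbp1 at -1.95 and -2.10, and Ptbp3 close to 0.

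No PTB gene passed the test between zones in control mice. In these mice the LZ library stood at 79.8% to 93.7% of the DZ level of the same pool for Ptbp1. The range was 83.7% to 98.5% for Ptbp3 and 61.1% to 114% for Ptbp2. Over all genes 7.49% were called: the LZ against DZ log2 fold changes were -0.22 ± 0.11 for Ptbp1, -0.28 ± 0.20 for Ptbp2 and -0.15 ± 0.091 for Ptbp3 (edgeR adjusted p = 0.279, 0.494 and 0.399). In cKO mice, where 9.09% of genes were called, Ptbp2 in the LZ stood at 64.5%, 78.8%, 64.2% and 93.2% of the DZ level of the same pool. Its log2 fold change was -0.44 ± 0.19 (95% interval -0.85 to -0.027, edgeR adjusted p = 0.184). With the mouse pool as a block it passed the threshold, at -0.43 (edgeR adjusted p = 0.0482), under a block with which 17.8% of genes were called, and without DZ cKO replicate 3 the unblocked value was -0.25 (edgeR adjusted p = 0.537). Ptbp1 and Ptbp3 in cKO cells gave -0.07 and 0.03 (edgeR adjusted p = 0.771 and 0.885). With a block the number of genes called rose to 2166 (sort day) and 2186 (pool) in control and to 2727 and 2810 in cKO mice.

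The change from control to cKO was not shown to differ between zones. The interaction of zone and genotype was 0.15 ± 0.15 for Ptbp1, -0.16 ± 0.28 for Ptbp2 and 0.18 ± 0.13 for Ptbp3 (edgeR adjusted p = 1.0 for each). For Ptbp2 the 95% interval of that difference was -0.75 to 0.43, which is wide beside the value itself. Over all genes edgeR called 0, with 466 at an unadjusted p under 0.05, and DESeq2 called 4.

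**Figure D3:**
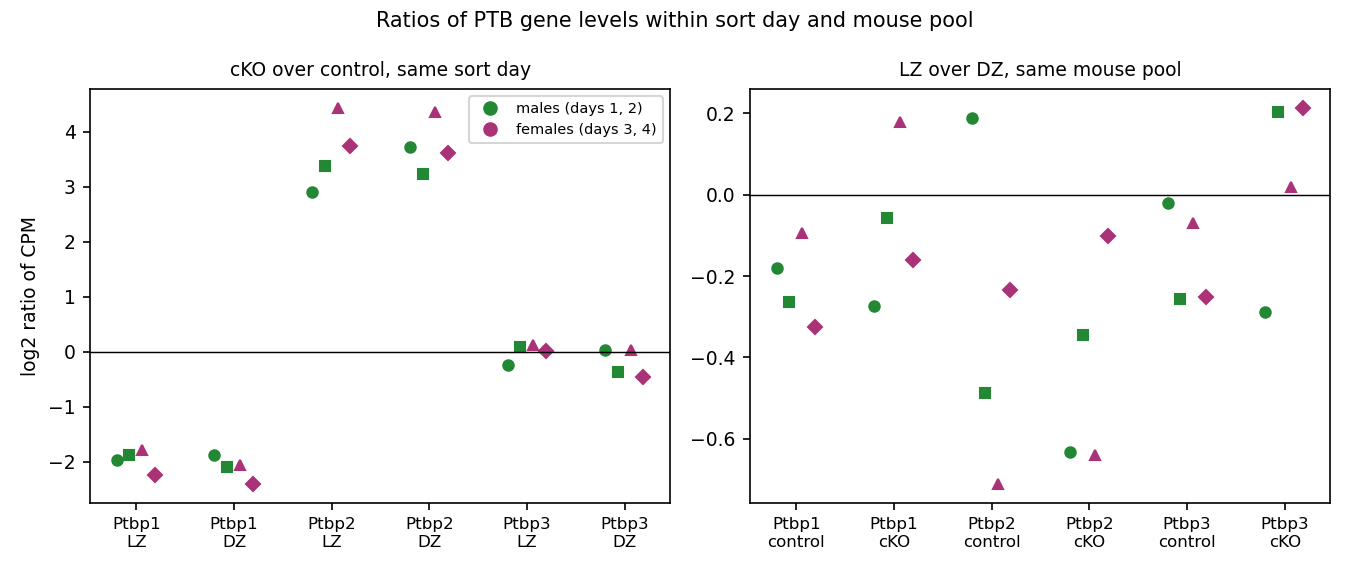
Log2 ratio of CPM (vertical axis) for each PTB gene, cKO over control within a sort day on the left and LZ over DZ within a mouse pool on the right; each point is 1 day or pool, green for males and purple for females, with symbols by sort day. All 8 Ptbp1 points of the left panel lie below 0 and all 8 Ptbp2 points above it, and in the right panel all points lie within about 1 log2 unit of 0.

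Males and females were sorted on different days, so sex and day cannot be told apart. The Ptbp2 increase in the LZ was 0.91 log2 units larger in females than in males (edgeR adjusted p = 1.0), and in the DZ 0.55 larger (edgeR adjusted p = 1.0). edgeR called 0 genes for that difference in each zone, with 404 in the LZ and 401 in the DZ at an unadjusted p under 0.05. The fit was added after the data were seen, and DESeq2 was not run on it.

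Genes whose profile over the 16 libraries was nearest to a PTB gene were ranked by root mean square difference of centred log2 CPM, among tested genes with an average log2 CPM of at least 3. Nearest to Ptbp1 were Slc43a1, an amino acid transporter, at 0.550, Unc45a, a myosin chaperone, at 0.551 and Tmem106c at 0.564, against a median of 1.05 over genes. For Ptbp2 they were Il9r, the interleukin-9 receptor, at 1.04, Ass1, argininosuccinate synthase, at 1.11 and Abcb4, a phospholipid transporter, at 1.15, against a median of 1.89. For Ptbp3 they were Dcun1d1, which promotes cullin neddylation, Ythdf1, a reader of methylated RNA, and Ccdc43, at 0.0966, 0.0991 and 0.100, where the median was 0.268. These distances are on different footings, since Ptbp3 itself ranged over 0.512 log2 units and Ptbp2 over 5.07. Il9r was 10.6 ± 0.785 CPM in LZ control and 86.6 ± 37.5 CPM in LZ cKO libraries (SD, n = 4), and Abcb4 19.6 ± 2.11 and 58.1 ± 11.2 CPM. In the DZ, Il9r was 7.23 ± 3.97 CPM in control and 37.0 ± 18.0 CPM in cKO libraries. Abcb4 was 10.1 ± 0.934 and 39.9 ± 4.25 CPM there. Both were thus lower on average in DZ cKO than in LZ cKO libraries, while the Ptbp2 mean was higher (215 against 159 CPM). Since likeness was computed on the same libraries that show the genotype change, these are descriptions.

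Genes that share a locus with the PTB genes or the Cre allele were read beside them. Cd79a, which codes for a receptor signalling subunit of B cells and carries the Cre gene in cKO mice, fell by 0.98 and 1.27 on the log2 scale in the LZ and DZ cKO libraries (edgeR adjusted p = 0.00151 and 9.97e-05). Plppr3 lies on the minus strand and covers 39.6% of the Ptbp1 span. Its mean was 1.80 ± 0.274 CPM in LZ control and 1.86 ± 0.623 CPM in LZ cKO (SD, n = 4), 2.53 ± 0.851 in DZ control and 1.51 ± 0.946 CPM in DZ cKO libraries, and it did not pass the test. The long noncoding RNA E130317F20Rik covers 5.40% of the span and was at 1.77 to 3.41 CPM on average per group. The microRNA gene Mir6910 had counts of 0 to 1. How the counting treated strand is not stated, so it is not known whether reads of a shared stretch went to 1 of the genes or to neither.

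Genes linked to PTB function were followed as 4 lists, each read by its counts and its median beside that of all tested genes (0.019 in the LZ and 0.011 in the DZ). Over all tested genes, 13.4% in the LZ and 11.4% in the DZ had an unadjusted p under 0.05 in edgeR. Among 16 partners and related splicing regulators, 15 were tested. None was called in the LZ or the DZ by edgeR or DESeq2, with 4 and 1 at an unadjusted p under 0.05 in edgeR, and the medians were -0.13 and -0.07. Sfpq, first described as a PTB-associated splicing factor, was 249 ± 27.0 CPM in LZ control and 201 ± 22.4 CPM in LZ cKO, and 308 ± 19.0 and 249.6 ± 14.2 CPM in the DZ (SD, n = 4). Its log2 fold change was -0.31 in both zones (edgeR adjusted p = 0.136 and 0.160). Mbnl1, which like PTBP1 represses and activates exons, gave 0.20 ± 0.069 in the LZ, and Hnrnpl, an RNA-binding relative, -0.13 ± 0.071 in the DZ (edgeR adjusted p = 0.198 and 0.520).

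All 16 nonsense-mediated decay factors were tested, none was called by either tool in either zone, 2 were at an unadjusted p under 0.05 in each, and the median was -0.04 in both. Smg6, the endonuclease of the pathway, was 45.5 ± 3.84 CPM in LZ control and 57.2 ± 4.20 CPM in LZ cKO libraries (SD, n = 4, edgeR adjusted p = 0.311). Magohb, an exon junction core protein, was 16.4 ± 1.38 and 12.4 ± 1.55 CPM in the LZ (log2 fold change -0.40, edgeR adjusted p = 0.371) and 17.7 ± 4.09 and 12.9 ± 3.07 CPM in the DZ (-0.45, edgeR adjusted p = 0.344). Its partner Rbm8a gave -0.19 ± 0.089 in the DZ (edgeR adjusted p = 0.439).

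Of 12 transcripts whose splicing PTBP1 controls in other cells, 11 were tested and none was called by either tool. Unadjusted p was under 0.05 for 3 in the LZ and 2 in the DZ, and the medians were 0.20 and -0.05. Gabbr1, a receptor subunit with an exon that PTBP1 represses in other cells, was 7.96 ± 3.07 CPM in LZ control and 14.8 ± 6.37 CPM in LZ cKO (SD, n = 4, log2 fold change 0.89, edgeR adjusted p = 0.203). Fas, a death receptor, was 160 ± 13.2 CPM in DZ control and 126 ± 16.3 CPM in DZ cKO (log2 fold change -0.35, edgeR adjusted p = 0.226). Src was below 0.2 CPM on average in both DZ groups. Gene counts do not separate isoforms, so splicing of these transcripts was not measured.

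With sort day as a block, 2 partners, 1 decay factor and 2 splicing targets were called in the LZ, and 1 partner and 1 target in the DZ. Over all tested genes the same block called 5.5% in the LZ and 3.27% in the DZ, and 1 of 16 decay factors in the LZ is near that share. These were Hnrnpa1, Sfpq, Eif4a3, Gabbr1 and Pkm in the LZ and Sfpq and Fas in the DZ, of which Hnrnpa1, Eif4a3 and Pkm were named after their values were seen. In the LZ the log2 fold changes were -0.30 (adjusted p = 0.0383), -0.31 (0.0169), -0.17 (0.0435), 0.88 (0.0341) and -0.24 (0.0193) in edgeR. In the DZ Sfpq and Fas gave -0.30 and -0.35 (edgeR adjusted p = 0.0242 and 0.0433).

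Neuronal genes, from the cells in which PTBP2 is the main PTB protein, were mostly undetected. Of 14 listed, 7 were at 0 in all 16 libraries, 11 stayed under 1 CPM in each and 3 were tested. None was called by edgeR in either zone, DESeq2 called 1 in the DZ (Tubb3, DESeq2 adjusted p = 0.0494, where it called 2.74% of all genes), and in edgeR 1 in each zone had an unadjusted p under 0.05. Tubb3, a tubulin of neurons that is also found in dividing cells, was 1.08 ± 0.612 in LZ control and 2.61 ± 0.623 CPM in LZ cKO, and 1.18 ± 0.818 and 3.98 ± 1.90 CPM in the DZ (SD, n = 4, edgeR adjusted p = 0.314 and 0.174). The summed level of 6 neuron markers was 0.953 to 5.70 CPM in LZ control, 3.98 to 8.31 in LZ cKO, 5.23 to 8.07 in DZ control and 11.7 to 14.0 CPM in DZ cKO libraries, with Rbfox3 and Snap25 at 0 throughout. Map2 and Tubb3 made up most of that sum. Map2 was 2.27 ± 1.92 and 2.89 ± 1.56 CPM in LZ control and cKO (SD, n = 4, edgeR adjusted p = 0.898). In the DZ it was 4.80 ± 1.04 and 8.29 ± 1.44 CPM (edgeR adjusted p = 0.754). Syp went the other way in the DZ, at 0.42 ± 0.35 in control and 0.21 ± 0.12 CPM in cKO (edgeR adjusted p = 0.701).

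PTBP1 itself was mapped on RNA by iCLIP, which crosslinks protein to RNA with ultraviolet light and reads the position of contact. The cells were splenic B cells of female C57BL/6 mice, cultured for 48 h with lipopolysaccharide (LPS), with 30000000 cells in each immunoprecipitation. Their genotype is listed as NA, they are not germinal centre cells, and no control immunoprecipitation was used here. A site in the pooled list carries a cDNA count, the number of distinct molecules ending there. The pooled list was made by the authors from 5 replicates, and sites are in mm10 coordinates.

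All PTB genes carried PTBP1 sites, more densely than most genes with a site. Ptbp1 had 26 sites with 47 cDNAs over 10.0 kb (2.60 sites per kb), Ptbp2 138 sites with 220 cDNAs over 65.9 kb (2.09 per kb) and Ptbp3 184 sites with 273 cDNAs over 77.5 kb (2.37 per kb). Among the 5558 of 17493 protein-coding genes of listed strand that had at least 1 site the median was 0.320 sites per kb, and the PTB genes stood at the 94.0, 92.0 and 93.3 percentiles. No site lay on the opposite strand of any of them, where 98.1% of sites in gene spans lie on the gene strand in general. Site number also depends on how much RNA a gene makes in these cells, which was not measured there, so density is not affinity.

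**Figure D4:**
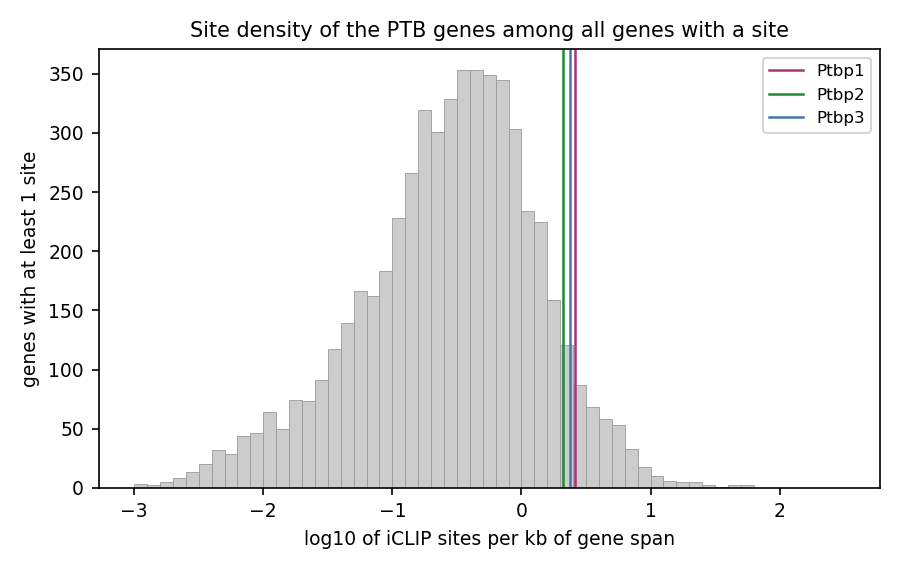
Number of genes (vertical axis) by log10 of pooled iCLIP sites per kb of gene span (horizontal axis) among 5558 genes with a site; coloured lines mark Ptbp1, Ptbp2 and Ptbp3. The 3 lines, at 2.60, 2.09 and 2.37 sites per kb, lie close together on the right flank, above a median of 0.320.

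Sites were unevenly spread along each gene. Dividing each span into 10 equal parts from its 5′ end, Ptbp1 held 57.4% of its cDNAs in part 7 and 19.1% in part 2. In Ptbp2, parts 6, 7 and 8 held 28.6%, 27.7% and 34.5%, and part 1 held none. In Ptbp3 the largest share was in part 2, at 33.0%, followed by part 10 at 16.8%. Spans were not compared with exons, since no exon annotation was used here.

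Sites at most 15 nt apart formed 7 clusters in Ptbp1, 30 in Ptbp2 and 47 in Ptbp3. The top Ptbp1 cluster, at chr10:79861421-79861422, covers 2 adjacent bases and held 19 cDNAs, or 40.4% of all on the gene. Where Plppr3 overlaps lay 15 of the 26 sites and 34 of the 47 cDNAs, on the plus strand of Ptbp1 and opposite to Plppr3. A further 9 cDNAs lay at chr10:79856275-79856296. On Ptbp2 the clusters at chr3:119743650-119743694, chr3:119733458-119733526 and chr3:119745490-119745572 held 31, 25 and 22 cDNAs. On Ptbp3 the leading clusters were at chr4:59508028-59508051 with 23 cDNAs and chr4:59488055-59488065 with 16.

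**Figure D5:**
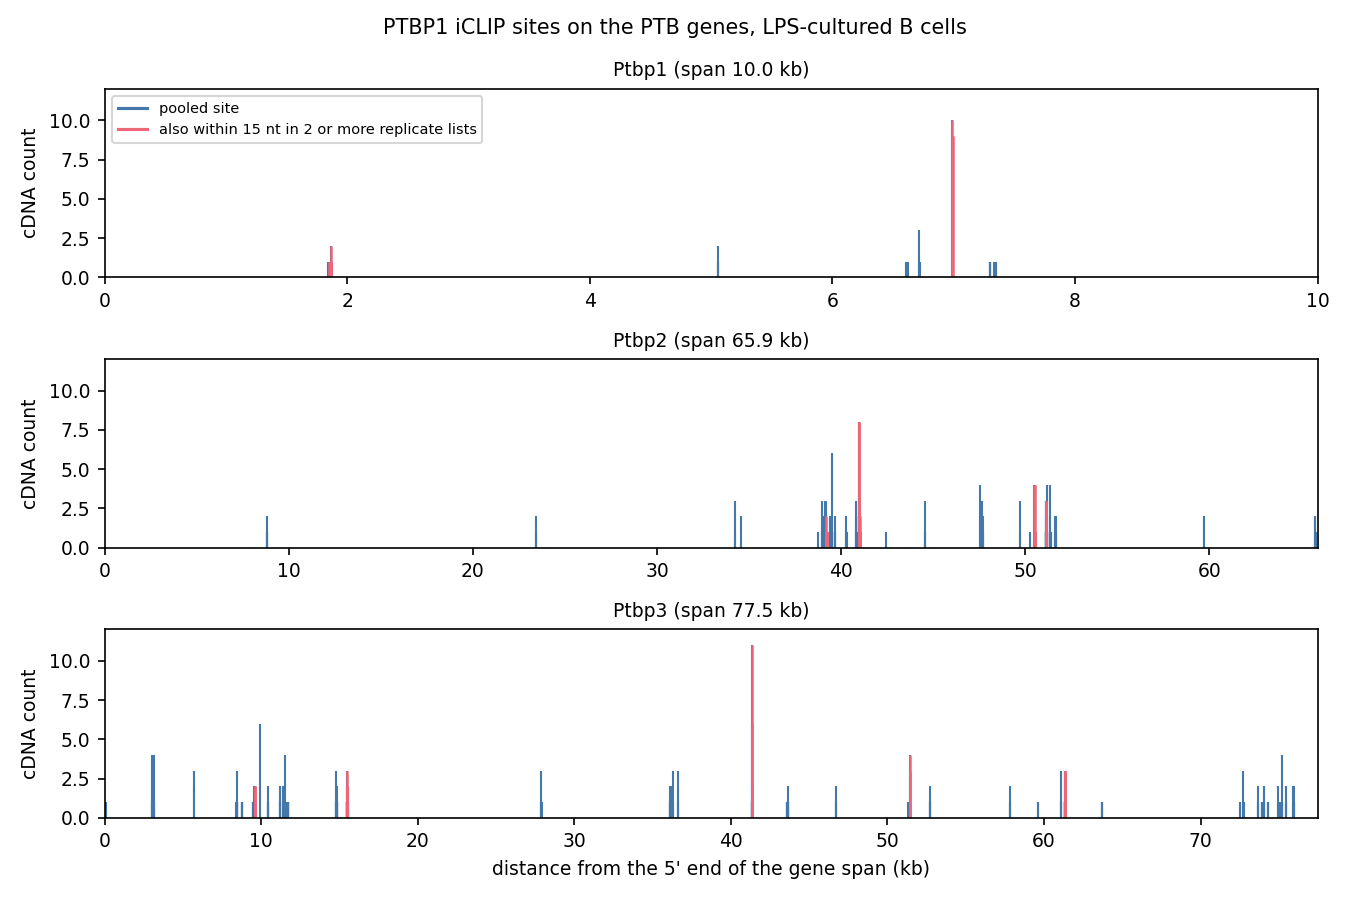
cDNA count of each pooled PTBP1 site (vertical axis) against distance from the 5′ end of the gene span in kb (horizontal axis, a different scale per gene) for Ptbp1, Ptbp2 and Ptbp3; red marks sites within 15 nt of a site in at least 2 replicate lists. Sites of Ptbp2 gather in parts 6 to 8 of 10, while those of Ptbp3 are spread with a dense group near the 5′ end.

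Replicate lists held far fewer sites, and each was called on its own data. Replicates 1 to 5 held 6, 5, 0, 2 and 3 sites on Ptbp1, 17, 16, 2, 33 and 6 on Ptbp2 and 24, 13, 0, 12 and 24 on Ptbp3, in lists of 17573, 28829, 6211, 45505 and 23100 sites. Replicate 3, the smallest list, had the fewest on every gene. Counting replicate sites up to 15 nt beyond a cluster, the top Ptbp1 cluster was met in 2 lists, with 4 and 9 cDNAs in replicates 1 and 2. The top Ptbp2 cluster was met in 3, with 7, 12 and 8 cDNAs in replicates 2, 4 and 5, and the top Ptbp3 cluster in 4, with 3, 6, 5 and 8 cDNAs in replicates 1, 2, 4 and 5. No cluster was met in all 5 lists, and 2, 18 and 31 clusters of Ptbp1, Ptbp2 and Ptbp3 were met in none.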

How the data were processed

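RNA-seq was read in 16 libraries and iCLIP in 5. The deposited RNA-seq values are raw counts per Ensembl gene. Per the labels' protocols, 2 ng of RNA was reverse transcribed from poly(A) RNA with a low-input kit and 0.5 ng of cDNA was amplified over 8 PCR cycles. Trimming with Trim Galore 0.4.2, alignment and counting with HISAT2 and HTSeq, and GRCm38 are named in the submitters' processing notes. Further versions, the annotation and the treatment of strand: not given in the sources used here. Lines that name no gene held 41.4% to 49.8% of entries and were left out. Of 47729 identifiers, 47224 matched a symbol. The deposited iCLIP score is a signed cDNA count whose sign gives the strand. Bowtie and GRCm38 are named for iCLIP in the submitters' processing notes. Per the file headers, sites passed a false discovery rate of 0.05 from 100 permutations within 15 nt, on mm10 with Ensembl 75. Random barcodes of 4 bases distinguish 256 molecules per position, which caps high counts. No column of other per-sample values was present.

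All 16 libraries entered a single fit of edgeR 4.0.16 (R 4.3.3; TMM scaling, filterByExpr at a minimum count of 10, robust quasi-likelihood, two-sided, Benjamini-Hochberg adjustment over all tested genes), without a block. The common biological coefficient of variation was 40.3%. Alternatives were DESeq2 1.42.0, other scalings and filters, blocks, single sexes and leaving out libraries or days. The script was tested on simulated data in the form of the LZ comparison. There it called 46% and 50% of genes with a true log2 fold change of -1 and 1. At -2 and 2 it called 69.4% and 70%, and among unchanged genes 0.0332%. A gene that was not called may therefore still have changed. The labels give the sort day that libraries of 1 number share and the pool that gave both zones, so numbers pair the libraries. Their deviations from group means correlated at 0.281 to 0.670 for equal numbers. P-values of the main fit measure the spread between libraries of a group, each from a different pool of mice. The LZ and DZ libraries of a pool entered it as independent. Its tests between zones and of the interaction therefore left out that pairing, which only the pool block takes in. Its genotype tests left out the shared sort day. Intervals cover 95%.

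The PTB genes and the gene lists were chosen with earlier results of these data known. Named genes are the PTB genes, list members called (otherwise up to 2 with the smallest p), the 3 nearest profiles of each PTB gene, Cd79a and genes overlapping a PTB span. Gene spans come from RefSeq GRCm38.p6, the same build as mm10. The Ptbp3 strand is absent from the promoter table and was set to minus from its known orientation. Site sequences and exons were not analysed here.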

Additional observations from a re-analysis of the deposited data

Results flagged for a closer look

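Ptbp2 in DZ cKO replicate 3, at 290.4 CPM, stood apart from the other DZ cKO libraries (182 to 195 CPM): its gap to the nearest was 0.873 of the range of the group, above the critical value of Dixon's test for 4 values. Over 15 groups checked, chance flags about 1 in 20. The same library had the highest plasma cell marker sum of its group (10617 CPM, the others 2262 to 8401) and the lowest macrophage marker sum (39.6 CPM, the others 347 to 1155). It also had the lowest germinal centre B cell sum (4798 CPM) and the highest neutrophil sum (92.7 CPM) of its group. DZ cKO replicate 2 had the plasma cell sum of 8401 CPM and the lowest Ptbp2 level of the group, 182 CPM. The part of these cell types in the Ptbp2 level was not tested. Without DZ cKO replicate 3 the DZ cKO against control log2 fold change of Ptbp2 was 3.57 (edgeR adjusted p = 3.17e-07).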

How the results depend on the processing

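Calls on Ptbp1 and Ptbp2 between genotypes held in all 30 alternatives each, from -2.07 to -1.87 (LZ) and -2.23 to -1.97 (DZ) for Ptbp1 and from 3.14 to 4.04 and 3.47 to 4.02 for Ptbp2. The call on Ptbp2 between zones in cKO cells passed only with the mouse-pool replicate block (-0.43, adjusted p = 0.0482, alternatives 0.0482 to 0.537). The replicate blocks changed no other call on the PTB genes. Values near 0 changed sign. For Ptbp3 in the LZ these were upper-quartile scaling (-0.0098), no low-count filter (-0.0022), only the compared groups (-0.00090) and males (-0.066), with a leave-out range of -0.045 to 0.067. Ptbp3 between zones in cKO gave -0.038 in males (leave-out -0.026 to 0.13), Ptbp1 0.031 in females (-0.18 to 0.0088), and the Ptbp2 interaction 0.027 in females (-0.31 to 0.066). The causes were not tested.

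Counts of called genes moved more. LZ cKO against control gave 171, and 102 without the filter, 546 with DESeq2, 868 with the sort-day block, 98 with only the compared groups, 3 in males, 9 in females and 17 to 195 on leaving out libraries or days. DZ gave 99, and 432, 517, 52, 2 and 4 in the same order from DESeq2 on, with 23 to 101 on leaving out. LZ against DZ control gave 1183, and 2166 (sort-day block), 2186 (pool block), 288 and 257 (sexes) and 576 to 1213. In cKO it gave 1436, and 2727, 2810, 820 (only the compared groups), 451, 364 and 672 to 1459. The interaction gave 0, 4 with DESeq2 and 0 to 1 on leaving out. Fewer libraries or genes enter some of these fits. Every sort day moved the 4 counts by over 1.5 times. In the LZ comparison the single libraries that did so were LZ control 1 to 4 (76, 89, 71 and 58) and LZ cKO 1, 2 and 4 (102, 62 and 88). In the DZ they were DZ control 3 and 4 (62 each) and DZ cKO 2 and 4 (49 and 62). Between zones they were LZ control 1 and 2 (787 and 753) in control and LZ cKO 2 (833) in cKO. DESeq2 called 1 neuronal gene in the DZ.

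iCLIP sites on Ptbp1, Ptbp2 and Ptbp3 (26, 138 and 184) numbered 2, 3 and 3 at 5 or more cDNAs, 2, 7 and 7 at the same position in 2 replicate lists, 9, 45 and 36 within 15 nt of 2 lists, 7, 30 and 47 as clusters and 0 on the opposite strand. The 5 replicate lists, called separately, together held 14, 64 and 62 positions, and 10 to 14, 37 to 62 and 42 to 62 with 1 list left out, of which only replicate 4 on Ptbp2 (37) moved a count by over 1.5 times. Most sites rest on 1 cDNA (80.8%, 68.1% and 73.4%), which limits their precision. Over all sites of the pooled list the share was 72.6%, so this is not particular to the PTB genes.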
